A study of Homo sapiens with 27 samples.

Results

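Interferon-stimulated genes are the genes that cells switch on after they sense interferon. A list of 44 such genes, chosen by symbol, was followed in MCF10DCIS.com cells given calcium oxalate crystals. All 44 symbols were found among the 60683 genes of the tables, and 37 of them passed the filter on low counts and were tested, among 16173 genes tested in all. The other 7 members (MX2, CMPK2, HERC5, CXCL11, XAF1, IFI27 and EPSTI1) had at most 31 counts in any library and were not tested.

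MCF10DCIS.com cells derive from the human mammary line MCF10A, are labelled as a premalignant breast line, and form lesions like ductal carcinoma in situ in mice. Polyadenylated RNA was sequenced from 27 libraries of cells that had been seeded at 500000, left for 6 h and then given crystals at 0.1 mg/mL or none. The COM group received plates of calcium oxalate monohydrate, and 4 groups received calcium oxalate dihydrate: DB dumbbell-shaped, SPH spherical, TK as thick bipyramids and TN as thin bipyramids. Each crystal group has 4 libraries, and 7 libraries come from untreated cells (Control). All groups are of this 1 line, and no label states whether a group's libraries are separate cultures, so p-values measure only how far these libraries spread, and part of that may be technical.

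Type I interferons signal through the receptor chains IFNAR1 and IFNAR2, the kinases JAK1 and TYK2, and a complex with STAT2 and IRF9 that binds the interferon-stimulated response element (ISRE) in the promoters of its targets. Type II interferon signals through IFNGR1 and IFNGR2 and acts on promoters with the gamma-activated sequence (GAS). Inflammatory signals such as interleukin 1 work through NF-kB instead, and in epithelial cells NF-kB drives genes such as PTGS2, CXCL8 and CCL20. The question put to the data was whether crystals that moved these inflammatory genes also moved the interferon arm, and how large a change the libraries leave room for.

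The members share promoter letters, for which the choice by symbol did not search. The ISRE is the element of known interferon targets, so finding it describes the list and is no result of the crystals. RefSeq (GRCh38.p14) gave 300-base windows, from 250 bases before to 50 bases after an annotated start, for 37 of the 44 members. The ISRE core GAAANNGAA, searched on both strands, stood in 31 of the 50 windows of these members (62.0%, Wilson 95% interval 48.2% to 74.1%), against 8.11% of the 35116 windows of all genes. The core followed by one more A stood in 58.0% of the members' windows and in 3.57% of all windows. For comparison, 27.8% of the windows of a list of inflammatory NF-kB targets held the core and 0 of their 18 windows held the longer form. GAS, written TTCNNNGAA, stood in 26.0% of the members' windows and 7.66% of all windows, and the NF-kB motif in 20.0% and 11.3%. A GAS match can overlap an ISRE match.

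The stretches below show the matches in members that recur in the results, each with the bases on either side, 5′ to 3′ along the gene's strand, with the matched letters in capitals. IFIT1 (chr10:89392493-89392544, plus strand) has cores 115 and 102 bases before its start, and IFIT3 (chr10:89327827-89327899, plus strand) has cores 155 and 121 bases before. Both genes carry them on the opposite strand, so the capitals read as the reverse complement. ISG15 (chr1:1013369-1013419, plus strand) has overlapping cores that begin 113, 107 and 101 bases before its start. RSAD2 (chr2:6865791-6865829, plus strand), BST2 (chr19:17405731-17405775, minus strand) and ISG20 (chr15:88638932-88638970, plus strand) are the members with a core that passed a test against Control. OASL, which also passed such a test, had no promoter window and was not searched. IRF1 (chr5:132490799-132490912, minus strand) has no core, but a GAS 124 bases and an NF-kB motif 50 bases before its start. The NF-kB target CCL20 (chr2:227813748-227813787, plus strand) is shown beside them.
IFIT1: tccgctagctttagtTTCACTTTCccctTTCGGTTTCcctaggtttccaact
IFIT3: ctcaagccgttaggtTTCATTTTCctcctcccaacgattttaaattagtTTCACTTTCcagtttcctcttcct
ISG15: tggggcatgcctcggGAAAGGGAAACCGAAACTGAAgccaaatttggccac
RSAD2: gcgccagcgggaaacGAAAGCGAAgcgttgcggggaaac
BST2: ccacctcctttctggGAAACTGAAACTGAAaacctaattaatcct
ISG20: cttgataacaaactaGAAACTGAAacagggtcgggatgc
IRF1: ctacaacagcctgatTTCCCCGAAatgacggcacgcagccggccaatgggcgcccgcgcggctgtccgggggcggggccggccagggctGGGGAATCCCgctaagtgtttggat
CCL20: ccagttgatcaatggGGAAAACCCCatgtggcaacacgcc

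Libraries held 13115649 to 38672448 counts (median 19251210). By the serial number in its name each library belongs to set 1 (numbers 1 to 10), set 2 (11 to 22) or set 3 (23 to 27), and the set was a term in every test. Set 1 holds replicates A and B of COM, DB, SPH, TN and Control, set 2 replicate C of the same forms, Control C to F and all 4 TK libraries, and set 3 replicate D of those forms and Control G. TN C, placed in set 2 by its number, had a mean fragment length of 297.0 nt, while no other library of set 2 exceeded 243.2 nt. The breast basal keratin and adhesion markers all had counts in every group, with summed levels of 7729 to 12530 CPM, counts scaled to a common library total. In TN B, 10 liver markers summed to 1331 CPM against at most 175 CPM in any Control library, and 10 leukocyte markers to 72.6 CPM against at most 22.1 CPM. The liver sum was also above every Control library, by less, in COM A, B and D, DB B and D and SPH A (178 to 207 CPM). Most of it there was 1 gene, SERPINA1, at 173 to 204 CPM against 72.3 to 167 CPM in Control. ALB stood at 0 to 2.97 CPM in these libraries against 0.12 to 8.82 CPM in Control, and at 659 CPM in TN B. The leukocyte sum was above Control in COM A and B and DB D (24.9 to 28.8 CPM), where CD68 alone stood at 17.1 to 21.1 CPM. No library exceeded every Control library in fibroblast and endothelial markers. The part of these markers in the results was not tested, and TN results are also given without TN B. In bulk RNA, fewer cells expressing a gene and less RNA per cell cannot be told apart.

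Among untreated cells the members spanned a wide range of levels, compared here per transcript length in TPM, the deposited length-adjusted unit. LGALS3BP, a secreted glycoprotein, averaged 340.2 ± 51.9 TPM and BST2, which tethers budding virions, 335 ± 47.5 TPM (SD, n = 7). The immunoproteasome subunit PSMB8 followed at 63.6 ± 7.16 TPM, the exonuclease ISG20 at 59.9 ± 12.1 TPM and the peptide transporter TAP1 at 31.7 ± 2.69 TPM. In all, 13 members were above 10 TPM, 18 lay between 1 and 10 TPM, and 13 were below 1 TPM, among them MX1, OASL, IFIT1, CXCL10 and RSAD2. The ranges of neighbours in this order were apart in 2 of 43 steps, between BST2 and PSMB8 and between ISG20 and TAP1, and the rest overlapped over the 7 libraries.

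Against Control, edgeR's quasi-likelihood test called few members in any crystal form (adjusted p under 0.05 over all 16173 genes). COM had 2 of 37 members higher and none lower, where 6.36% of all genes were called. DB had 1 higher and 2 lower, with 10% of all genes called. SPH had none, with 0.111% of all genes called; 3 members had an unadjusted p under 0.05 and DESeq2 called 1. TK had 1 higher and 2 lower, with 15.4% of all genes called, and TN had 1 higher and 1 lower, with 11.7% of all genes called. Over the 5 forms this makes 10 of 185 tests (5.41%), from 8 members, against 8.72% of the 80865 tests of all genes, and 29 members were called in no form. The 5 comparisons share the same Control libraries.

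The median log2 fold change of the 37 members was 0.04 in COM, −0.04 in DB, −0.05 in SPH, 0.09 in TK and 0.04 in TN, beside medians of all genes between −0.016 in TK and −0.003 in TN. Signs were mixed: 20 members lay above 0 in COM, 15 in DB, 12 in SPH, 23 in TK and 21 in TN. The joint test for any difference between the 6 groups called 8 of the 37 members (21.6%), namely ISG20, IRF1, IFIT3, RSAD2, OASL, IFIT2, PSMB8 and PSMB9, where it called 23.2% of all genes.

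**Figure D1:**
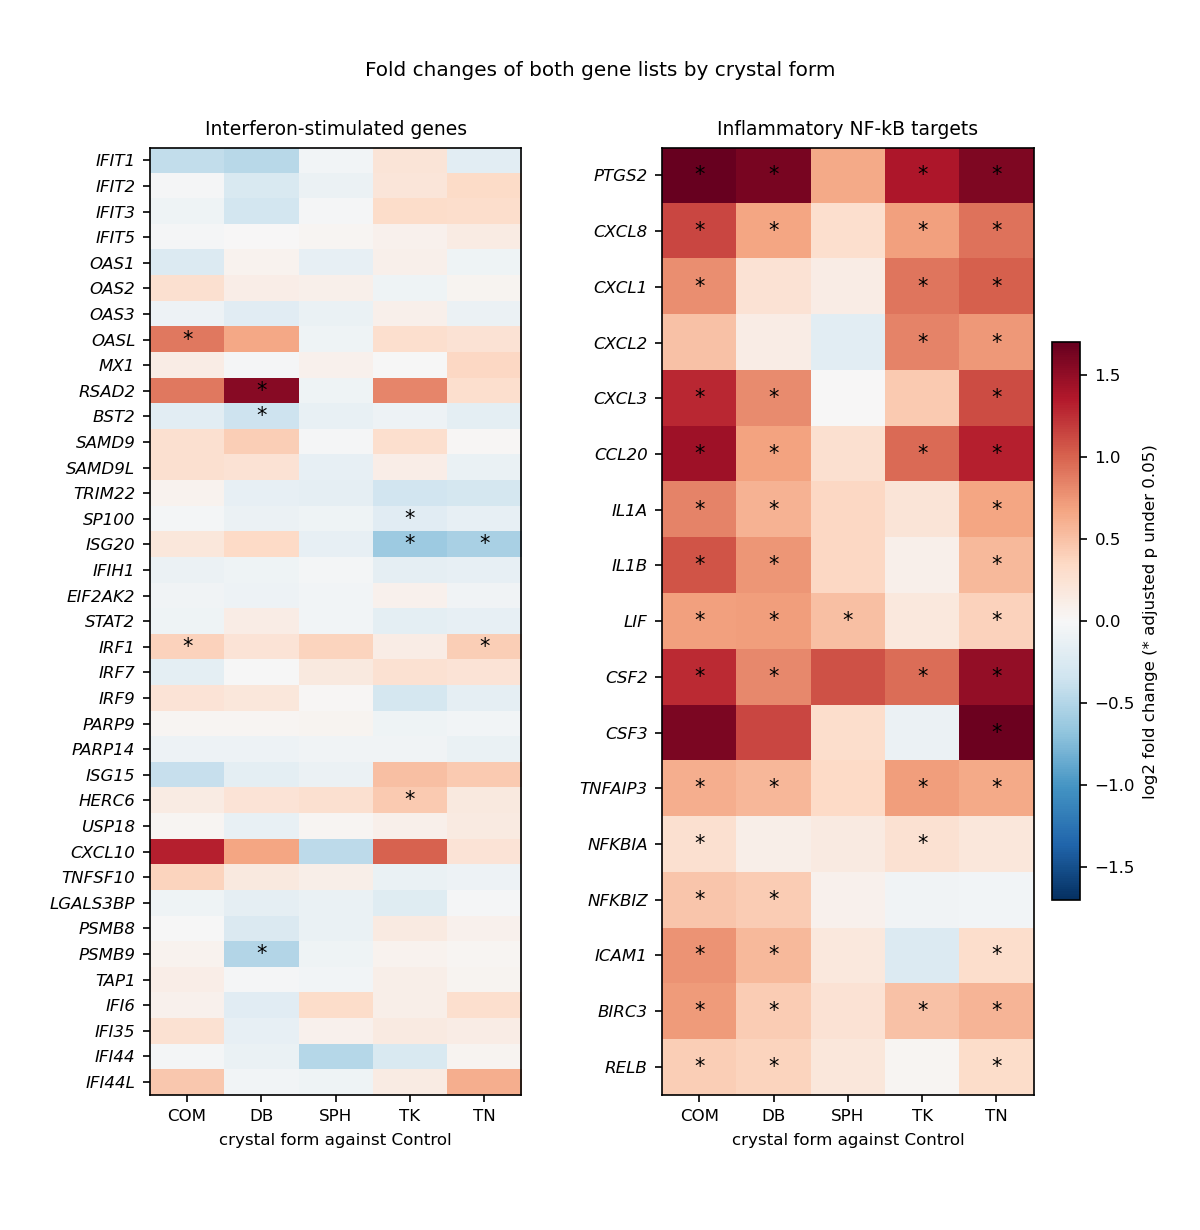
Log2 fold change of each crystal form (columns) over Control for the 37 measured interferon-stimulated genes (left) and 17 measured inflammatory NF-kB targets (right), with red higher and blue lower than Control and an asterisk for an edgeR adjusted p under 0.05. Of the 185 cells on the left, 10 carry an asterisk and signs are mixed, while on the right PTGS2 reaches 1.72 in COM and no NF-kB target is called lower.

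The inflammatory NF-kB targets are set beside the members in the same libraries. Of 17 measured targets, 15 were called higher in COM, 13 in DB, 1 in SPH, 9 in TK and 15 in TN, and none lower. Their median log2 fold changes were 0.80 in COM, 0.59 in DB, 0.28 in SPH, 0.44 in TK and 0.67 in TN. PTGS2, the inducible prostaglandin synthase, averaged 61.2 ± 16.1 CPM in COM, 55.1 ± 6.19 CPM in DB, 28.9 ± 6.46 CPM in SPH, 50.1 ± 2.12 CPM in TK and 55.4 ± 11.1 CPM in TN (SD, n = 4 each), against 18.9 ± 3.85 CPM in Control (n = 7). It was called higher in COM, DB, TK and TN, by log2 fold changes of 1.72, 1.61, 1.38 and 1.58 in that order, with an edgeR adjusted p of at most 9.94e-07. In SPH its log2 fold change was 0.64 and was not called (edgeR adjusted p = 0.0891). CXCL8, the neutrophil chemokine, rose by 1.13 in COM, 0.67 in DB, 0.69 in TK and 0.92 in TN on the log2 scale. CCL20, a chemokine for CCR6-bearing lymphocytes, rose by 1.44 in COM, 0.68 in DB, 0.97 in TK and 1.32 in TN. The cytokine IL1B rose by 1.06 in COM, 0.75 in DB and 0.56 in TN but stood at 0.09 in TK, and LIF was the 1 target called in SPH, higher by 0.52. This list was drawn up with earlier results of these data known. Its direction, the size of its changes and its share of calls are therefore not independent evidence.

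**Figure D2:**
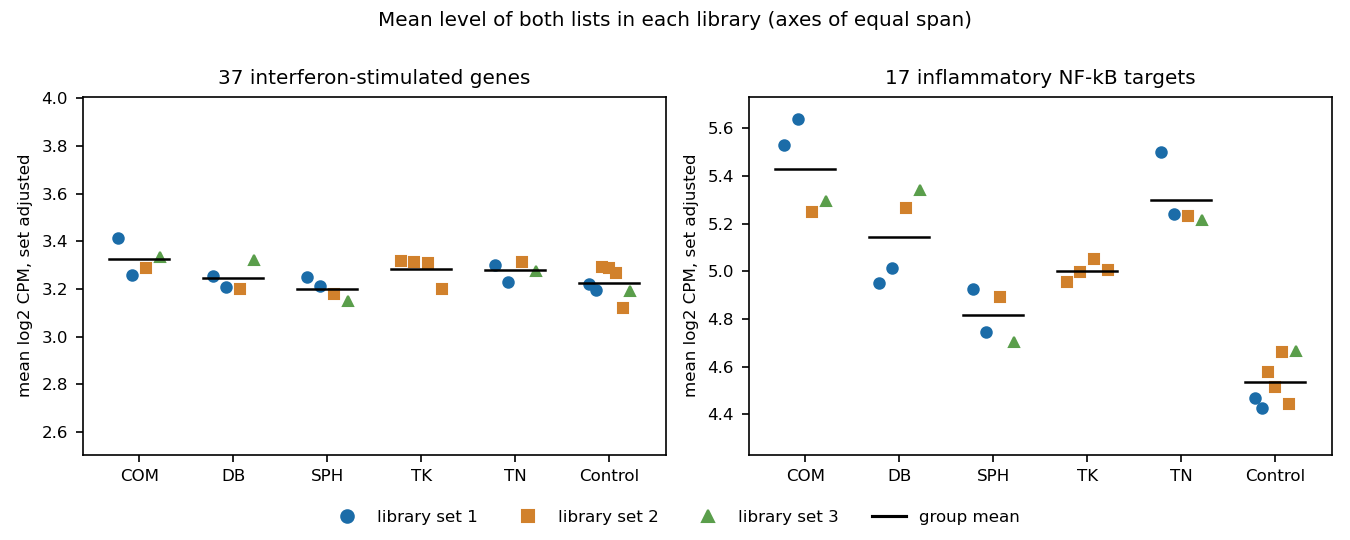
Mean log2 CPM over the 37 interferon-stimulated genes (left) and the 17 NF-kB targets (right) in each library after removal of the library set effect, with 1 point per library, bars at group means and axes of equal span. The interferon genes lie between 3.12 and 3.41 in all 27 libraries and the crystal groups overlap Control, while every crystal library lies above every Control library for the NF-kB targets.

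Averaged over the 37 members, the set-adjusted log2 CPM was 3.32 ± 0.07 in COM, 3.25 ± 0.06 in DB, 3.20 ± 0.04 in SPH, 3.29 ± 0.06 in TK and 3.28 ± 0.04 in TN (SD, n = 4 each), against 3.23 ± 0.06 in Control (n = 7). The COM libraries ran from 3.26 to 3.41 and the Control libraries from 3.12 to 3.29, so even the group with the highest mean overlapped Control. The NF-kB average was 5.43 ± 0.19 in COM, 5.14 ± 0.19 in DB, 4.82 ± 0.11 in SPH, 5.00 ± 0.04 in TK and 5.30 ± 0.14 in TN, against 4.54 ± 0.10 in Control, with the lowest crystal library at 4.70 and the highest Control library at 4.67. Because the NF-kB list was chosen with earlier results known, its separation from Control is not independent evidence.

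The limits on a change were taken from the 95% interval of each fold change, gene by gene. Intervals lay wholly within 1.5-fold of Control, in either direction, for 27 of 37 members in COM, 26 in DB, 29 in SPH, 26 in TK and 26 in TN. They lay within 2-fold for 33 members in COM, 34 in DB, 35 in SPH, 33 in TK and 34 in TN. Of all genes tested, 69.6% had an interval within 1.5-fold in COM, 69.3% in DB, 73.8% in SPH, 65.3% in TK and 68.7% in TN. Counted over forms, 18 members stayed within 1.5-fold and 32 within 2-fold in all 5. The 5 tested members for which some form leaves room for a 2-fold change or more were CXCL10, RSAD2, IFI44L, OASL and ISG15. Of these, ISG15 averaged 3.84 TPM in Control and the others less than 1 TPM. Members that were not tested have no interval, so no limit was set on them. RSAD2 in DB was the only member whose interval lay wholly beyond 1.5-fold. It passed the filter on low counts only through its DB libraries, so this is not independent evidence. These intervals are for single genes and are not widened for the number of genes.

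The average of the 5 form contrasts gives the narrowest limits, on a change shared by the forms. Its interval was within 1.5-fold for 33 of 37 members and within 2-fold for 35, against 79.8% of all genes within 1.5-fold. Changes of opposite sign cancel in this average. ISG20 averaged −0.15 (−0.36 to 0.06) on the log2 scale, though it stood at 0.34 in DB, −0.61 in TK and −0.55 in TN. IRF1 rose by 0.31 (95% interval 0.19 to 0.43, edgeR adjusted p = 0.00127) and HERC6 by 0.25 (0.09 to 0.41, edgeR adjusted p = 0.0381), and these were the 2 members called, where 10.5% of all genes were called. The widest interval was that of CXCL10, at 0.56 (−0.27 to 1.41), and the narrowest that of SP100, at −0.11 (−0.19 to −0.02, edgeR adjusted p = 0.0979). The call of HERC6 was lost on leaving out any 1 of 12 libraries (Control A, B, D, F or G, COM C or D, DB B, SPH D, TK C or D, or TN A), with edgeR adjusted p-values up to 0.144. That of IRF1 held in all 27 such fits (edgeR adjusted p of 0.000699 to 0.0058) and was lost with a replicate block in place of the set (0.0917).

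**Figure D3:**
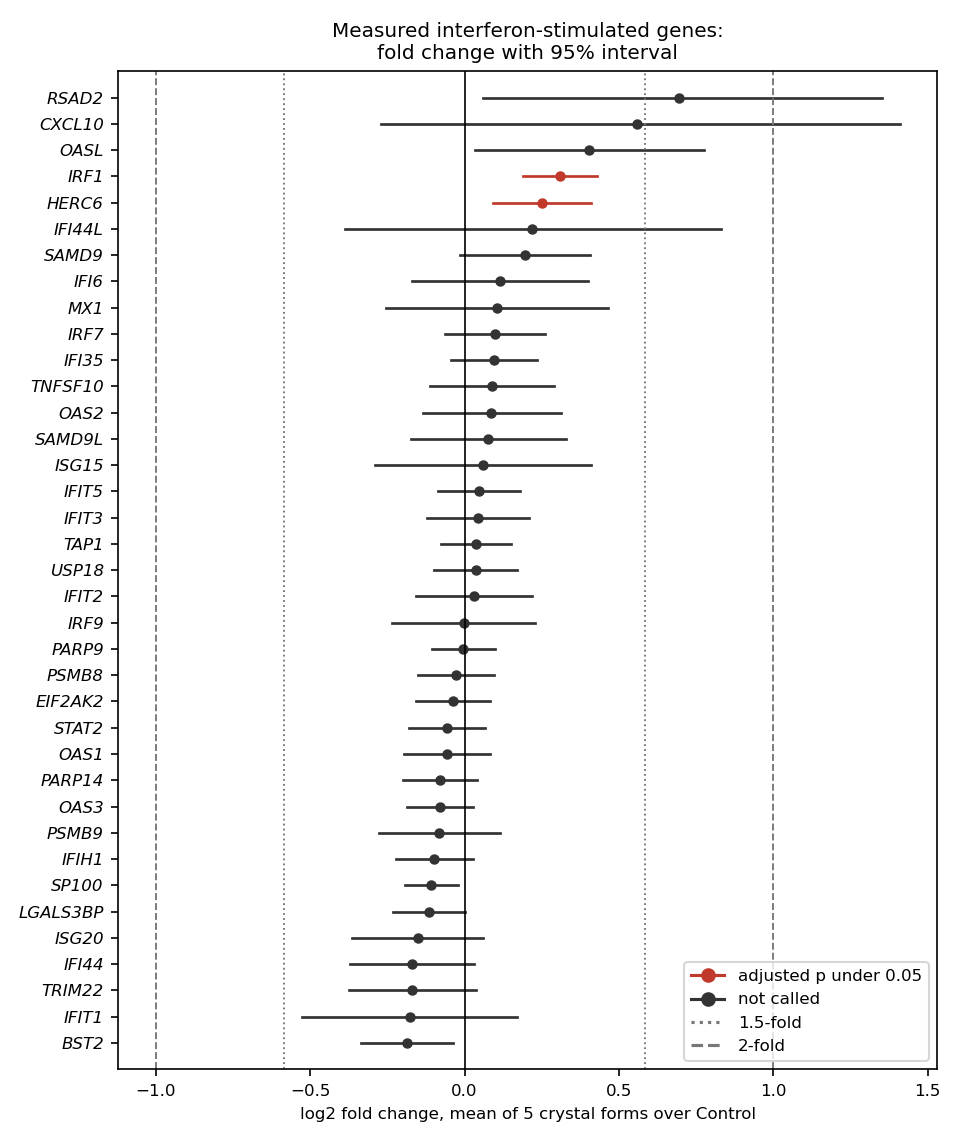
Log2 fold change of the average of the 5 crystal forms over Control with its 95% interval for each of the 37 measured members, ordered by fold change, with dotted lines at 1.5-fold and dashed lines at 2-fold. IRF1 and HERC6, in red, are called, and the intervals of 33 members lie between the dotted lines.

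IRF1, a transcription factor that is itself a target of interferon gamma and of NF-kB, was called higher in COM and TN. It stood at 20.2, 22.2, 26.9 and 22.1 CPM in COM libraries A to D, 16.4, 18.4, 24.5 and 22.7 CPM in DB, 20.8, 23.9, 23.9 and 21.5 CPM in SPH, 20.2, 23, 20.8 and 19.8 CPM in TK and 22.1, 21.3, 24.7 and 24.9 CPM in TN, against 15 to 20.8 CPM (median 18.1) in Control. All SPH and all TN libraries lay above every Control library, while COM, DB and TK overlapped Control. IRF1 rose in COM by 0.39 (SE 0.084, 95% interval 0.22 to 0.56, edgeR adjusted p = 0.00415) and in TN by 0.42 (SE 0.083, 0.25 to 0.59, edgeR adjusted p = 0.00157) on the log2 scale. In SPH the log2 fold change was of like size, 0.38 (0.21 to 0.56), but was not called (edgeR adjusted p = 0.0746), and it was 0.23 in DB and 0.13 in TK. Differences of IRF1 between forms were tested and none was called. Within sets 1, 2 and 3 the log2 fold change was 0.35, 0.52 and 0.25 in COM, and 0.39, 0.40 and 0.42 in TN. Without TN B it was 0.43 in TN (edgeR adjusted p = 0.003), and the COM call was lost without COM C (edgeR adjusted p = 0.054) and with no set term (0.0658). With the replicate block in place of the set, the call was lost in both COM (edgeR adjusted p = 0.093) and TN (0.0622). IRF1 lies at chr5:132481609-132490798 on the minus strand (GENCODE 29, GRCh38), and its exons share 1716 bases with the opposite-strand gene C5orf56, whose reads cannot be told apart because no strand setting is stated.

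The other factors of the interferon pathway passed no test against Control in any form. STAT2, a signal carrier of the type I response, stood at 23, 27, 18.7 and 28.1 CPM in COM libraries A to D, 28.8, 26, 26.9 and 28.1 CPM in DB, 25.7, 26.4, 19.3 and 27.1 CPM in SPH, 20.7, 19.4, 18.4 and 18.8 CPM in TK and 20.2, 24.4, 22.2 and 24.2 CPM in TN, against 19.7 to 32.2 CPM (median 23.7) in Control. Every form overlapped Control, and TK B, C and D lay below every Control library while TK A lay inside the Control range. IRF9, the DNA-binding partner of STAT2, stood at 10.4, 8.46, 5.2 and 11 CPM in COM, 9.07, 6.97, 5.94 and 12.3 CPM in DB, 9.02, 6.29, 5.36 and 9.4 CPM in SPH, 4.77, 4.94, 3.73 and 3.97 CPM in TK and 4.45, 9.01, 5.48 and 7.28 CPM in TN, against 4.84 to 9.62 CPM (median 7.06) in Control. Its log2 fold change ran from −0.30 in TK to 0.23 in COM, and its exons overlap those of AL136295.5 on the same strand. IRF7, the amplifier of type I interferon production, stood at 5.08, 4.81, 4.47 and 4.93 CPM in COM, 5.31, 4.8, 5.14 and 6.47 CPM in DB, 6.45, 6.2, 5.41 and 6.34 CPM in SPH, 5.36, 6.75, 6.5 and 4.68 CPM in TK and 6.65, 6.55, 5.74 and 6.47 CPM in TN, against 4.36 to 6.79 CPM (median 4.88) in Control. All 6 factors and partners had intervals within 1.5-fold in COM, DB and SPH, the ADP-ribosyltransferases PARP9 and PARP14 included, and IRF9 was the widest of them in TK, at −0.66 to 0.07.

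Of the antiviral effectors and RNA sensors, 18 of 20 were measured. COM had 1 called higher, DB 1 higher and 1 lower, TK 2 lower, TN 1 lower and SPH none, where the test called 6.36% of all genes in COM, 10% in DB, 0.111% in SPH, 15.4% in TK and 11.7% in TN. Their median log2 fold changes were −0.02 in COM, −0.05 in DB, −0.07 in SPH, 0.08 in TK and −0.07 in TN. The IFIT proteins, which bind viral RNA ends, are among the genes most used to detect a type I response. IFIT1 stood at 1.4, 0.621, 1.31 and 1.54 CPM in COM libraries A to D, 1.77, 1.02, 0.913 and 1.11 CPM in DB, 1.61, 2.21, 1.04 and 1.68 CPM in SPH, 1.63, 1.51, 2.17 and 1.93 CPM in TK and 1.56, 1.33, 1.74 and 1.18 CPM in TN, against 1.21 to 2.1 CPM (median 1.52) in Control. All groups overlapped, with log2 fold changes of −0.42 (−0.94 to 0.09) in COM, −0.47 (−0.97 to 0.04) in DB, −0.04 in SPH, 0.23 in TK and −0.18 in TN.

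IFIT3 stood at 6.37, 4.97, 4.55 and 6.05 CPM in COM libraries A to D, 4.83, 5.39, 4.51 and 3.9 CPM in DB, 6.37, 5.78, 4.52 and 6.27 CPM in SPH, 7.45, 6.45, 6.02 and 5.9 CPM in TK and 8.35, 7.02, 6.02 and 7.14 CPM in TN, against 4.57 to 5.89 CPM (median 5.64) in Control. All TK and all TN libraries lay above every Control library, while COM, DB and SPH overlapped it. The log2 fold changes, 0.32 (0.07 to 0.56) in TK, 0.30 (0.07 to 0.54) in TN and −0.31 (−0.55 to −0.07) in DB, were not called against Control (edgeR adjusted p = 0.0709, 0.0808 and 0.0892 in that order). Counted over all members, those with all libraries of a form on one side of all Control libraries numbered 0 of 37 in COM (3.33% of all genes), 1 in DB (RSAD2; 3.79% of all genes), 2 in SPH (IRF1 and IFI6; 0.680% of all genes), 5 in TK (IFIT3, HERC6, SP100, LGALS3BP and ISG20; 15.1% of all genes) and 4 in TN (IFIT2, IFIT3, IRF1 and SP100; 2.93% of all genes).

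MX1, the dynamin-like GTPase, stood at 0.859, 0.854, 1.23 and 1.11 CPM in COM libraries A to D, 0.758, 0.756, 1.37 and 0.836 CPM in DB, 0.91, 1.06, 1.14 and 0.688 CPM in SPH, 1.22, 1.27, 1.08 and 0.967 CPM in TK and 1.17, 0.783, 1.54 and 1.32 CPM in TN, against 0.52 to 1.49 CPM (median 1.08) in Control. Every form overlapped Control, and the log2 fold change was between −0.03 in DB and 0.36 in TN. OAS1, the 2'-5' oligoadenylate synthetase, stood at 13.7, 11.3, 7.2 and 11.6 CPM in COM, 14.9, 13.7, 9.02 and 15.8 CPM in DB, 13.7, 13.3, 7.13 and 12.8 CPM in SPH, 10.7, 8.98, 9.76 and 8.85 CPM in TK and 13.6, 13.4, 9.13 and 12.1 CPM in TN, against 7.52 to 13.7 CPM (median 11.1) in Control. In each of COM, DB, SPH and TN the C library, of set 2, was the lowest, and no form was called. IFIH1, the sensor MDA5, stood at 15, 14.3, 15.3 and 14.7 CPM in COM, 15.2, 17, 14.4 and 13.7 CPM in DB, 15.7, 14.4, 15.1 and 17 CPM in SPH, 16.4, 15.2, 13.5 and 13.3 CPM in TK and 13.7, 12.7, 17.9 and 12.9 CPM in TN, against 15.2 to 16.7 CPM (median 16.1) in Control. Its log2 fold change was between −0.16 and −0.03 in the 5 forms and not called, with every interval within 1.5-fold.

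OASL, a relative of the oligoadenylate synthetases that enhances RIG-I signalling, was called in COM. It stood at 2.43, 1.55, 1.12 and 2.18 CPM in COM libraries A to D, 1.99, 1.51, 1.08 and 1.61 CPM in DB, 1.2, 1.06, 0.624 and 0.764 CPM in SPH, 0.582, 1.09, 1.14 and 0.56 CPM in TK and 1.2, 1.36, 0.714 and 1.47 CPM in TN, against 0.578 to 1.31 CPM (median 0.804) in Control. COM C lay inside the Control range and the other 3 COM libraries above it. OASL (chr12:121019111-121039242, minus strand) rose in COM by 0.89 on the log2 scale (SE 0.245, 0.39 to 1.40, edgeR adjusted p = 0.0268), on 20 to 68 counts a library in COM and 8 to 25 in Control. Within sets 1, 2 and 3 the COM log2 fold change was 1.31, 0.56 and 0.73. The call was lost without Control A (edgeR adjusted p = 0.0806), Control B (0.0693), COM A (0.135) or COM D (0.0743), and with no filter on low counts (0.0801).

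RSAD2 (viperin, chr2:6865806-6898239, plus strand), an antiviral enzyme of the endoplasmic reticulum, had the largest log2 fold change of the 37 members over the 5 forms. It stood at 0.537, 0.155, 0.347 and 0.849 CPM in COM libraries A to D, 0.59, 0.888, 0.856 and 0.743 CPM in DB, 0.372, 0.17, 0.26 and 0.153 CPM in SPH, 0.699, 0.543, 0.301 and 0.254 CPM in TK and 0.306, 0.392, 0.314 and 0.221 CPM in TN, against 0.105 to 0.4 CPM (median 0.264) in Control. All 4 DB libraries lay above every Control library. RSAD2 rose in DB by 1.54 on the log2 scale (SE 0.397, 0.75 to 2.38, edgeR adjusted p = 0.0127). This rests on 15 to 27 counts a library in DB and 2 to 10 in Control, so the gene remained near the bottom of what was measured. Outside DB too few libraries reached the level the filter asks for, so RSAD2 was tested only because of its DB libraries. Its DB call and its place as the largest change are therefore not independent evidence. Within sets 1, 2 and 3 the DB log2 fold change was 1.17, 1.75 and 2.76, and the call held on leaving out each library in turn (edgeR adjusted p up to 0.0426) but not with a replicate block in place of the set (0.119).

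BST2 (tetherin, chr19:17402939-17405648, minus strand) stood at 196, 159, 175 and 214 CPM in COM libraries A to D, 154, 156, 190 and 159 CPM in DB, 201, 171, 184 and 215 CPM in SPH, 204, 191, 230 and 193 CPM in TK and 181, 199, 163 and 207 CPM in TN, against 169 to 291 CPM (median 208) in Control. The DB libraries A, B and D lay below every Control library and DB C inside the Control range. BST2 fell in DB by 0.36 on the log2 scale (SE 0.105, −0.57 to −0.14, edgeR adjusted p = 0.0308), with −0.29, −0.26 and −0.38 within sets 1, 2 and 3. The call was lost without Control A (edgeR adjusted p = 0.0677), DB A (0.0805), DB B (0.078) or DB D (0.123), and with the replicate block (0.0569). In the other 4 forms the log2 fold change was between −0.18 and −0.09.

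ISG20 (chr15:88636153-88656483, plus strand), an RNA exonuclease, was called lower in both bipyramid forms. It stood at 46.8, 39.9, 21.8 and 43.8 CPM in COM libraries A to D, 39.7, 32.6, 34.3 and 62.7 CPM in DB, 36.4, 23.1, 26.6 and 31.3 CPM in SPH, 18, 14.5, 18.4 and 16.4 CPM in TK and 18.8, 25.8, 16 and 30.8 CPM in TN, against 23.2 to 42.3 CPM (median 29.8) in Control. All TK libraries lay below every Control library, while TN overlapped Control in TN B and TN D. ISG20 fell in TK by 0.61 on the log2 scale (SE 0.159, −0.94 to −0.28, edgeR adjusted p = 0.0104) and in TN by 0.55 (SE 0.149, −0.85 to −0.24, edgeR adjusted p = 0.0186). In TN the log2 fold change was −0.39, −0.75 and −0.46 within sets 1, 2 and 3, and −0.64 without TN B (edgeR adjusted p = 0.0127). The TN call was lost without TN A (edgeR adjusted p = 0.092) or TN C (0.0617), with no set term (0.289) and with the replicate block (0.352), whereas the TK call held on leaving out each library in turn (up to 0.0469).

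SP100 (chr2:230415942-230544090, plus strand), a component of nuclear bodies, stood at 44.7, 40.7, 35.7 and 36.8 CPM in COM libraries A to D, 35.9, 38.7, 37.2 and 39.1 CPM in DB, 41.2, 37.8, 34.7 and 40.4 CPM in SPH, 34.1, 35, 33.6 and 33.2 CPM in TK and 35.9, 36.9, 36.9 and 36.9 CPM in TN, against 37.8 to 42.8 CPM (median 38.8) in Control. All TK and all TN libraries lay below every Control library, by narrow margins. It fell in TK by 0.20 on the log2 scale (SE 0.062, −0.33 to −0.07, edgeR adjusted p = 0.0328), and stood at −0.14 in TN (edgeR adjusted p = 0.127). The TK call was lost on leaving out any 1 of 13 libraries (Control C, E or F, COM D, DB B or C, SPH B, any TK library, TN C or TN D), with edgeR adjusted p-values up to 0.134, and with no filter on low counts (0.301).

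ISG15 is a ubiquitin-like protein, HERC6 a member of the family that holds its ligase HERC5, and USP18 removes it from its targets. ISG15 stood at 1.32, 0.776, 1.19 and 0.796 CPM in COM libraries A to D, 1.4, 0.921, 0.799 and 1.89 CPM in DB, 1.61, 1.44, 0.936 and 1.22 CPM in SPH, 1.57, 1.93, 1.26 and 1.83 CPM in TK and 2.73, 1.91, 1.2 and 1.91 CPM in TN, against 1.01 to 1.66 CPM (median 1.25) in Control. Every form overlapped Control, and the log2 fold changes of 0.51 (−0.01 to 1.04) in TK, 0.45 (−0.03 to 0.93) in TN and −0.40 (−0.91 to 0.12) in COM were not called. HERC6 (chr4:88378739-88443111, plus strand) stood at 8.91, 9.39, 7.9 and 8.54 CPM in COM, 9.89, 10.2, 7.59 and 9.16 CPM in DB, 8.23, 11.9, 8.43 and 9.55 CPM in SPH, 8.91, 10.1, 9.82 and 10.5 CPM in TK and 10.6, 8.04, 7.91 and 8.9 CPM in TN, against 6 to 8.82 CPM (median 7.67) in Control. All TK libraries lay above every Control library and the other forms overlapped it. HERC6 rose in TK by 0.44 on the log2 scale (SE 0.114, 0.21 to 0.67, edgeR adjusted p = 0.0089). The call held on leaving out each library in turn (edgeR adjusted p up to 0.0306) and was lost with the replicate block (0.0584) and in a fit of set 2 alone (0.0514). USP18 was called in no form, and its reads are uncertain because of the near-identical gene USP41.

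Of the secreted members, CXCL10, the chemokine of activated T cells and a standard readout of interferon, was barely detected. It stood at 1.11, 0.776, 0.154 and 0.584 CPM in COM libraries A to D, 0.59, 0.395, 0.114 and 0.495 CPM in DB, 0.289, 0.212, 0.104 and 0.0764 CPM in SPH, 0.408, 0.0603, 0.422 and 0 CPM in TK and 0.334, 0.339, 0.2 and 0.221 CPM in TN, against 0.0378 to 0.42 CPM (median 0.161) in Control. COM A, B and D lay above every Control library and COM C inside its range. The COM log2 fold change of 1.33 had an interval of 0.31 to 2.39 and was not called (edgeR adjusted p = 0.117), on 4 to 31 counts a library in COM and 1 to 8 in Control. CXCL10 passed the filter on low counts only with its COM libraries counted, so this change is not independent evidence. TNFSF10, the death ligand TRAIL, had a log2 fold change between −0.11 in TK and 0.38 in COM, and LGALS3BP one between −0.21 in TK and −0.02 in TN, none of them called.

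The antigen processing members share a cluster on chromosome 6. TAP1 stood at 67, 60.3, 61.6 and 58.5 CPM in COM libraries A to D, 52.5, 51.3, 52.7 and 67.9 CPM in DB, 58, 57.3, 55.1 and 50.7 CPM in SPH, 62.2, 62.5, 65 and 58.6 CPM in TK and 61.4, 55.9, 60.2 and 58.1 CPM in TN, against 47.9 to 66.1 CPM (median 58.1) in Control. Every form overlapped Control and its log2 fold change was between −0.04 and 0.12. The exons of TAP1 share 456 bases with PSMB8-AS1 on the opposite strand. PSMB9 (chr6:32844136-32859585, plus strand), a subunit of the immunoproteasome, stood at 15.3, 11, 15.1 and 17.8 CPM in COM, 7.5, 9.28, 15 and 9.66 CPM in DB, 10.5, 10.2, 18 and 16.9 CPM in SPH, 20.9, 16.7, 17.8 and 17.4 CPM in TK and 14.7, 13.2, 14.1 and 15.9 CPM in TN, against 9.96 to 22.6 CPM (median 15.4) in Control. DB A, B and D lay below every Control library and DB C inside the range. PSMB9 fell in DB by 0.50 on the log2 scale (SE 0.139, −0.78 to −0.21, edgeR adjusted p = 0.0245), with −0.51, −0.27 and −0.54 within sets 1, 2 and 3. The call was lost without Control A (edgeR adjusted p = 0.067), DB A (0.0916) or DB D (0.109), with no set term (0.0542) and with the replicate block (0.0758). Its exons overlap those of PSMB8 and PSMB8-AS1, so reads of the 3 genes cannot be told apart fully.

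**Figure D4:**
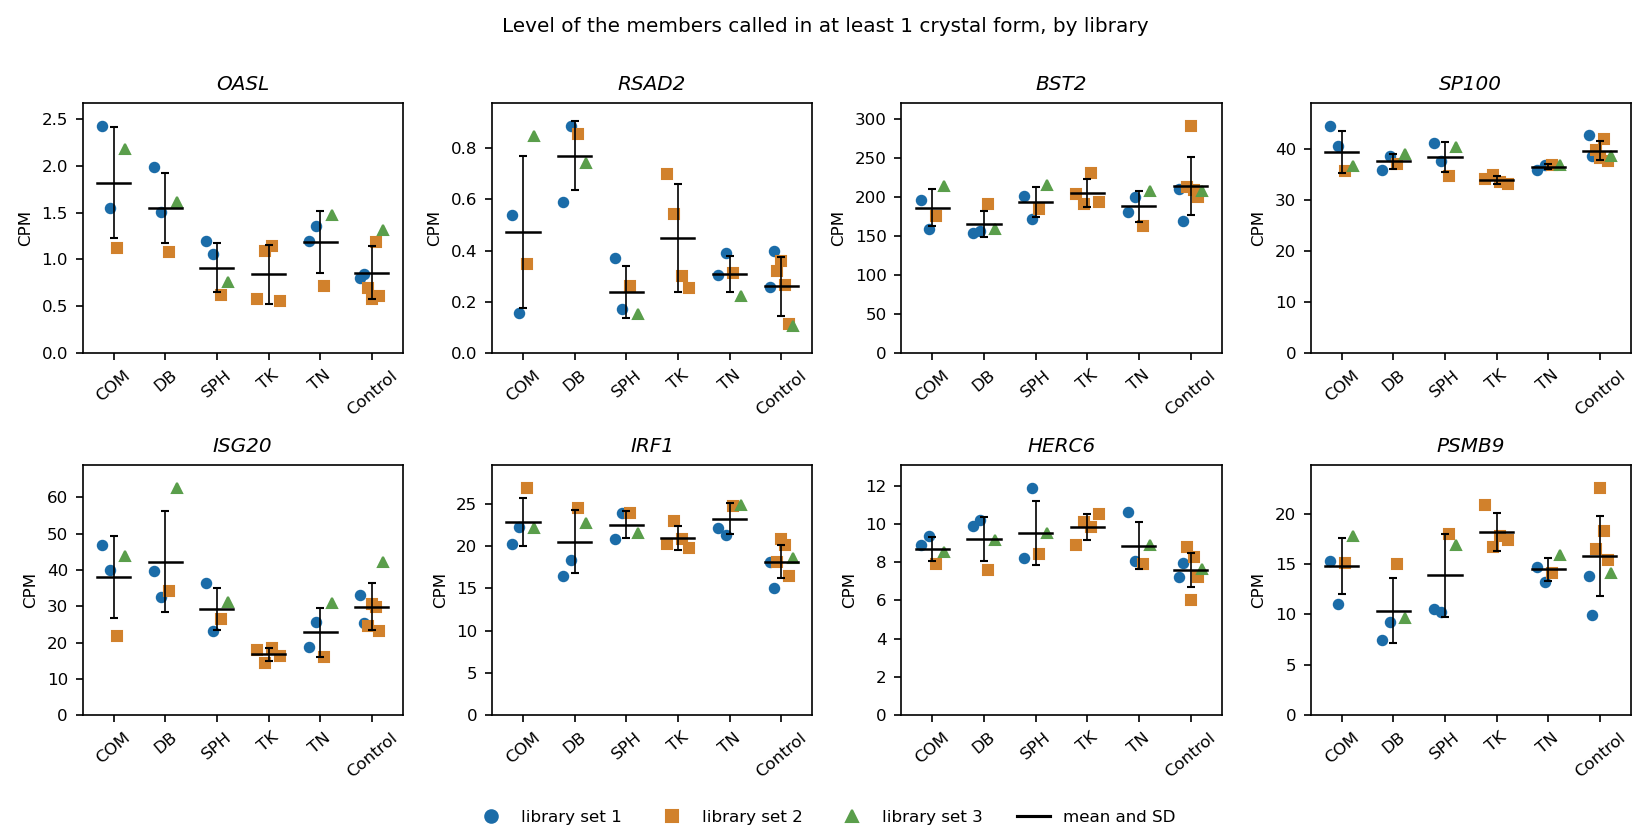
CPM in each library of the 8 members called in at least 1 crystal form, with 1 point per library, coloured and shaped by library set, and bars for the mean and SD of each group. All 4 DB libraries lie above Control for RSAD2 and all 4 TK libraries below it for ISG20 and SP100, while OASL in COM and BST2 and PSMB9 in DB overlap Control in at least 1 library.

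All TK libraries belong to set 2, and untreated cells differed between sets in some members. Set 2 against set 1 controls had 7 of 37 members called by edgeR, where 13.9% of all genes were called. OAS1 (−0.50), SAMD9 (−0.91), SAMD9L (−0.68), TRIM22 (−0.80), TNFSF10 (−0.78) and LGALS3BP (−0.51) were lower in set 2 and PSMB9 (0.60) was higher, on the log2 scale, and without Control B the count was 3. Within set 2, the log2 fold change of TK was −0.68 for ISG20, 0.37 for HERC6 and −0.22 for SP100.

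Compared with each other at the same dose, the forms differed in 8 members. With edgeR p-values adjusted over all genes and all 10 pairs of forms, 14 of 370 tests of members were called (3.78%), against 4.69% of all tests. ISG20 was lower in both bipyramids, by log2 fold changes of −0.95 in TK against DB (adjusted p = 0.0031), −0.81 in TK against COM (0.0122), −0.89 in TN against DB (0.00187) and −0.74 in TN against COM (0.00768). IFIT3 was higher in both bipyramids than in dumbbells, by 0.63 in TK (edgeR adjusted p = 0.0102) and 0.62 in TN (0.00415), and IFIT2 was higher in TN than in DB by 0.58 (0.0152). The exons of IFIT2 share 356 bases with AL353751.1 on the same strand, so reads of both genes cannot be told apart fully. PSMB8 was higher than in DB by 0.40 in TK (edgeR adjusted p = 0.0274) and 0.32 in TN (0.0483), and PSMB9 by 0.54 in TN (0.0389). In DB against COM, PSMB9 stood at −0.56 (edgeR adjusted p = 0.0325) and IFI35 at −0.40 (0.0274). In SPH, OASL was lower than in COM by a log2 fold change of −0.97 (edgeR adjusted p = 0.038) and RSAD2 lower than in DB by −1.62 (0.0341). The count of calls fell to 9 without DB B. Thin against thick bipyramids, which share the dihydrate and the bipyramid shape, had no member called, where 1.21% of all genes were called. Of 37 intervals of the difference, 26 lay within 1.5-fold and 33 within 2-fold. For ISG20 the difference of TN from TK was 0.07 (95% interval −0.32 to 0.45) and for IFIT3 −0.01 (−0.30 to 0.27). Neither bipyramid had a member called against SPH, where 2.73% of all genes were called in TN and 5.18% in TK. Within 1.5-fold lay 27 intervals in TN and 22 in TK.

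Upstream of the members, most interferon genes had few counts or none. IFNB1 had 0 counts in 26 of 27 libraries and 2 counts in COM A, and IFNA2, IFNW1 and IFNG had 0 counts in all 27. IFNA1 had 0 to 14 counts a library in the crystal forms and 0 to 26 in Control, and IFNK, IFNL1, IFNL2 and IFNL3 had at most 7 in any library. Of these genes IFNE, an epithelial interferon, alone passed the filter on low counts; its log2 fold change was −0.75 in TK (edgeR adjusted p = 0.08) and −0.73 in TN (0.061). Of 13 receptor and JAK-STAT genes, 3 were called higher in COM, 2 in DB and none in SPH, while TK had 1 higher and 2 lower and TN 1 higher and 1 lower. Beside these, the test called 6.36% of all genes in COM, 10% in DB, 0.111% in SPH, 15.4% in TK and 11.7% in TN. IFNGR1, the ligand-binding chain for interferon gamma, rose by a log2 fold change of 0.34 in COM, 0.29 in DB, 0.34 in TK and 0.40 in TN, with an edgeR adjusted p of at most 0.00842. Its partner IFNGR2 rose in COM by 0.30 and fell in TK by 0.56, and IFNAR2, a type I receptor chain, fell in TK by 0.39 and in TN by 0.26.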

How the data were processed

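RNA-seq of 27 libraries was deposited by the authors as 1 table per library with expected counts, TPM and lengths per gene, per the file headers. RSEM, Bowtie2, Trim Galore and the build GRCh38 appear in the submitters' processing notes. Tool versions, the gene annotation and any use of strand in counting were not given in the sources used here. Expected counts were rounded to whole numbers, and the deposited TPM values served only to order members in Control.

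With R 4.3.3 and edgeR 4.0.16, filterByExpr selected genes on the 6 groups and TMM set the scale. A quasi-likelihood model with group means and a term for library set was fitted over all 27 libraries and all 16173 genes kept. Members were printed from that fit, with Benjamini-Hochberg adjustment over all genes (for pairs of forms, over genes and the 10 pairs). A gene was called at an adjusted p under 0.05. Intervals are 95% Wald intervals of the same fit, and the set-adjusted means use log2 CPM with a prior count of 2.

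Alternatives were DESeq2 1.42.0, limma-voom (limma 3.58.1), relative log expression scaling, no filter, no set term, a replicate block, TN C in set 1, set 2 alone for TK, an adjusted p under 0.10, and each library left out in turn. Replicates differed by more than sampling noise in every group (chi-square per degree of freedom at least 2.387). Coordinates are those of GENCODE 29 on GRCh38 and promoter windows those of RefSeq on GRCh38.p14. The members and the gene lists were chosen with earlier results of these data known. Members named with values in every library are those called in at least 1 form and IFIT1, IFIT3, ISG15, MX1, OAS1, IFIH1, STAT2, IRF1, IRF9, IRF7, CXCL10, TAP1 and BST2. From the other lists at most 3 genes called in at least 2 forms, by smallest p, and PTGS2, CXCL8, LIF, IL1B, CCL20 and IFNB1 are named. A result for 1 gene that this rule names is not reported here. Counts and non-overlaps name the members they hold, and SERPINA1, ALB and CD68 are named as parts of the marker sums.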

Additional observations from a re-analysis of the deposited data

Results flagged for a closer look

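Among the 19 members given library by library, 114 groups were examined for a library far from the rest of its group, and 7 had one; chance gives about 1 in 20. BST2 was highest in DB C (190 CPM, next 159) among DB libraries and in Control D (291 CPM, next 213) among Control libraries. MX1 was highest in DB C (1.37 CPM, next 0.836) and TAP1 in DB D (67.9 CPM, next 52.7). OAS1 was lowest in SPH C (7.13 CPM, next 12.8), and SP100 in TN A (35.9 CPM, next 36.9). IFIT3 was lowest in Control C (4.57 CPM, next 5.44). Each gap is measured between single libraries.

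Summed levels of liver and leukocyte markers, which no comparison above uses, stood above every Control library in several crystal libraries. In TN B the liver markers summed to 1331 CPM against at most 175 CPM in Control, and the leukocyte markers to 72.64 CPM against at most 22.13 CPM. By a smaller margin the liver sum was also above Control in COM A (206.7 CPM), COM B (186.5 CPM), COM D (189.1 CPM), DB B (188.4 CPM), DB D (200.3 CPM) and SPH A (177.9 CPM). In these libraries SERPINA1 alone stood at 173 to 204 CPM, while ALB, at 0 to 2.97 CPM, did not exceed its highest Control level of 8.82 CPM. The leukocyte sum was above it in COM A (26.37 CPM), COM B (24.92 CPM) and DB D (28.79 CPM). Without TN B, TN still had 2 members called by edgeR, IRF1 at a log2 fold change of 0.43 and ISG20 at −0.64, and the median over members was 0.07.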

How the results depend on the processing

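Of 1121 values recomputed under other settings, 1002 kept their direction and call, or moved by less than the replicate SD (medians) or 1.5 times (counts), no called fold change of a single member reversed sign, 62 counts or medians moved further, and 57 calls of single members were lost. Counts of called members are small, so single calls move them, and the cause of each move was not tested. The share of all genes called was not computed under any alternative setting or with a library left out. Counts of called members under these settings, here and above, therefore have no background beside them. The shares of all genes given above are those of the main fit. At an adjusted p under 0.10 the counts were 8 in DB, 1 in SPH, 5 in TK, 4 in TN, 14 in the joint test and 28 in the pairs. With no set term they were 1 in COM, 1 in TN and 1 for the mean of forms, with an SPH median of −0.012. With no filter on low counts they were 1 in COM, 5 in DB and 1 in SPH, with medians of 0.02 in DB and 0.12 in TN. With limma-voom DB had 5, with DESeq2 SPH had 1, and RSAD2 in DB then had no adjusted p. With TN C in set 1 the mean of forms had 1 and the TN median was −0.023. Medians near 0 changed sign in 5 of these comparisons: in DB with no filter, in TN with TN C in set 1, in COM without COM A (−0.009) or COM D (−0.007), and in TN without TN C (−0.053).

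With a replicate block in place of the set, the counts were 1 in COM, 0 in DB, 6 in TK, 0 in TN, 0 for the mean of forms and 34 in the pairs, with medians of −0.077 in DB and 0.02 in TK. Deviations of same-lettered crystal and Control libraries from their group means correlated at −0.12 to 0.42. The set effect was left in these deviations and the letters go partly with the sets. Whether the letters pair the libraries can therefore not be told from this.

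Leaving out 1 library at a time gave 1 to 3 members in COM (1 without Control A or B, COM A, C or D), 1 to 6 in DB (1 without Control A or DB D, 5 without Control B, 6 without DB C), 0 to 1 in SPH (1 without DB D), 2 to 5 in TK (5 without DB D), 1 to 3 in TN (1 without TN A), 1 to 2 for the mean of forms, 5 to 11 in the joint test (5 without COM A, COM D, DB A or DB B), 9 to 20 in the pairs (9 without DB B) and 3 to 7 between control sets (3 without Control B). Medians ran from −0.009 to 0.065 in COM, −0.072 to −0.001 in DB and −0.053 to 0.07 in TN. Intervals within 1.5-fold numbered 20 to 30 of 37 in single forms and 32 to 33 for the mean. The intervals of RSAD2, CXCL10, OASL, IFI44L and ISG15 leave room for a 2-fold change; RSAD2 had 2 to 27 counts a library, and the part of depth was not tested.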

Other observations

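Of 14 measured nucleic acid sensors, adaptors and kinases outside the list of members, 2 were called higher in COM, 2 in DB, none in SPH, 3 in TK and 6 in TN, and none lower, by edgeR over all genes. The same test called 6.36% of all genes in COM, 10% in DB, 0.111% in SPH, 15.4% in TK and 11.7% in TN. IFI16, a nuclear DNA sensor, averaged 57.3 ± 5.41 CPM in COM, 59.6 ± 4.01 CPM in DB, 53.3 ± 2.66 CPM in SPH, 63.2 ± 3.14 CPM in TK and 67.4 ± 11.7 CPM in TN (SD, n = 4 each), against 47.7 ± 1.89 CPM in Control (n = 7). It rose by a log2 fold change of 0.29 in COM, 0.35 in DB, 0.37 in TK and 0.53 in TN, with an edgeR adjusted p of at most 0.0147. CGAS, the sensor that makes the second messenger cGAMP, rose by 0.29 in TK and 0.41 in TN, and the dNTP hydrolase SAMHD1 by 0.58 in TK and 0.36 in TN. Of 14 measured MHC class I and loading genes, TAP2 alone was called, higher by 0.32 in TK and 0.32 in TN, and all 14 had intervals within 1.5-fold of Control in every form.

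Correlations between members were mixed in sign. Over 666 pairs of measured members, Pearson's r of set-adjusted log2 CPM across the 27 libraries had a median of 0.01 and ran from −0.73 to 0.82, a description of points that share libraries and groups. The genes outside the list with the pattern most like the members' mean were PDZK1IP1 (r = 0.745), ST3GAL4 (0.744) and CASP6 (0.738), over the same 27 libraries.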
